A study of Homo sapiens with 8 samples.

Results

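The intervals described here are 951 sites of weakened but retained histone acetylation: genomic intervals that carried an H3K27ac peak in all 3 wild-type (WT) and all 3 CREBBP-KO libraries, and whose peak was lower in the knockout. Overlapping peaks of the 6 lists were merged into 143733 intervals, of which 52187 had a peak in every library. Members were selected on the fold of the peak over its local background, taking the highest peak of each library in an interval: at least 5 in all 3 WT libraries and below 5 in all 3 CREBBP-KO libraries. They made up 1.82% of the 52187 intervals, and 3.17% of the 29980 intervals that passed a fold of 5 in every WT library. Because these folds chose the members, the folds given for them are a description and carry no test.

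The cells were HCEC-1CT, an established line of human colonic epithelium, grown in low-serum medium with EGF and hydrocortisone. The 2 groups were WT cells and cells in which CREBBP had been knocked out by CRISPR, with 3 separately grown populations each, and all carried an inducible Cas9. The knockout cells of the ChIP experiment are described as monoclonal, and elsewhere as pools of clones set against pooled parental subclones, so features of single clones cannot be told apart from the knockout. One input library per genotype was not analysed here.

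H3K27ac, acetylation of lysine 27 on histone H3, marks active promoters and enhancers. CREBBP and its paralogue EP300 are the main acetyltransferases that place it, and both are recruited by many sequence-specific transcription factors. Enhancers lie mostly in introns and between genes, away from transcript starts. AP-1, TEAD, RUNX and forkhead factors are common enhancer-binding families in epithelial cells, and GATA and CDX factors are known from the gut.

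Windows of 300 bases centred on the highest WT summit are shown for 7 members away from promoters, on the plus strand of hg38, to let the sites be read directly. The first 5 are the members with the lowest ratio of CREBBP-KO to WT fold, and the other 2 are the members of lowest ratio with an AP-1 match; windows that touch an exon, that of the LRRK2 interval among the lowest, were passed over. Capitals mark matches, on either strand, to the letters TGANTCA for AP-1, TGTTTAC for forkhead factors, GGAATG for TEAD factors, TGTGGT for RUNX factors, AGATAA for the GATA family or TTTATNG for CDX factors. Matches may overlap one another at their ends.
ERC2 intron, chr3:55885309-55885608: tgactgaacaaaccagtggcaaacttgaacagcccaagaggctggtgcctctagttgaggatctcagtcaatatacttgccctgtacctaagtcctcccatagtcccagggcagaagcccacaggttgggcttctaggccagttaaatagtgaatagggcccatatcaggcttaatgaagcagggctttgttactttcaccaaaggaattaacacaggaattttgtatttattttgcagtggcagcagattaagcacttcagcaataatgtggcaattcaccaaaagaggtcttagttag
TP63 first intron, chr3:189686065-189686364: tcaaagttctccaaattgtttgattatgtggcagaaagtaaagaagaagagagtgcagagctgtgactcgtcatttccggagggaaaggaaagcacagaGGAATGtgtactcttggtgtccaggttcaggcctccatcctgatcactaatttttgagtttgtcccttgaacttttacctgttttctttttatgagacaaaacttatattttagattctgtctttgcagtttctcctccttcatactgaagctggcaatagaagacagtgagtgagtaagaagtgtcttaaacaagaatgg
TCF21, intergenic, chr6:133637128-133637427: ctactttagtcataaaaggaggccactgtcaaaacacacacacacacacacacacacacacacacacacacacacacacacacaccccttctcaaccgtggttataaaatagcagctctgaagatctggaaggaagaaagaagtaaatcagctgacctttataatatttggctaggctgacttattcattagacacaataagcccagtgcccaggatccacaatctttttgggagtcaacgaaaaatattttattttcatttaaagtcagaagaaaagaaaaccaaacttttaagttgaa
MYO16, intergenic, chr13:108463777-108464076: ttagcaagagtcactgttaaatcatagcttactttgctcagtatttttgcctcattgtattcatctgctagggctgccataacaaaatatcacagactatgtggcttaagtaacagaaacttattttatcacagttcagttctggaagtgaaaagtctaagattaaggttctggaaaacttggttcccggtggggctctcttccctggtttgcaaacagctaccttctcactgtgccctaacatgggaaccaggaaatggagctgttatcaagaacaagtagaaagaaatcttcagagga
DMRT3, downstream, chr9:994984-995283: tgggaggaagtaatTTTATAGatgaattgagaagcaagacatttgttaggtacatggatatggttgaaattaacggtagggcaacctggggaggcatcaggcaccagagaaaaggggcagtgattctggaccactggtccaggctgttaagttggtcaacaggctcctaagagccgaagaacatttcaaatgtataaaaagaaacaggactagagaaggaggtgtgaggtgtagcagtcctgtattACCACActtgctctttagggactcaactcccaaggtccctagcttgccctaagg
MAP3K5 intron, chr6:136613593-136613892: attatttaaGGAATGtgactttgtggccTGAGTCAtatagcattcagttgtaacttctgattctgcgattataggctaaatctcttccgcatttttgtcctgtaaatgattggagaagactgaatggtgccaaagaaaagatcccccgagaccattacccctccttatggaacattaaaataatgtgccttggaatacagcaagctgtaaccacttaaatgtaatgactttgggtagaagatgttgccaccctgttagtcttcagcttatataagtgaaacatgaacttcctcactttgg
LRP1B intron, chr2:141341655-141341954: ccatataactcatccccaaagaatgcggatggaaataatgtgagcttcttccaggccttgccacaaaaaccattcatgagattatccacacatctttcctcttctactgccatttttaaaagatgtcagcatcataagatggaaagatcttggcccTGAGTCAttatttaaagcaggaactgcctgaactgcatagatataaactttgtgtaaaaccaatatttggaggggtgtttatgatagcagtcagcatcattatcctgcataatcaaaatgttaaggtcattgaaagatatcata
The ERC2, TCF21 and MYO16 windows held no match to the 6 motifs. The TP63 window held 1 TEAD match, the DMRT3 window 1 RUNX and 1 CDX match, the MAP3K5 window 1 AP-1 and 1 TEAD match, and the LRP1B window 1 AP-1 match.

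Across the members, the median fold was 6.42, 6.403 and 6.17 in WT libraries 1 to 3, and 3.97, 4.04 and 3.99 in CREBBP-KO libraries 1 to 3. Over all 52187 intervals the medians were 6.67, 6.65 and 6.43 in WT and 6.67, 6.87 and 6.87 in CREBBP-KO. Members were near these medians in WT and well under them in the knockout, where the rule held them below 5. Among intervals that passed in WT they were low: the median of the mean WT fold was 6.44, against 9.89 for the others. The rule favours low WT peaks, which fall below 5 after a smaller drop. Ranked within each list, the median member stood at percentile 69.3, 69.1 and 66.5 in WT and at 49.2, 49.3 and 48.002 in CREBBP-KO. The median log2 ratio of fold, CREBBP-KO over WT, was -0.71, a ratio of 0.609, and ranged from -1.83 to -0.18. The median over all 52187 intervals was 0.08. The ratio was 0.5 or less in 158 members (16.6%). In 14.2% of the 52187 intervals every WT library lay above every CREBBP-KO library; all members do so by construction.

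**Figure D1:**
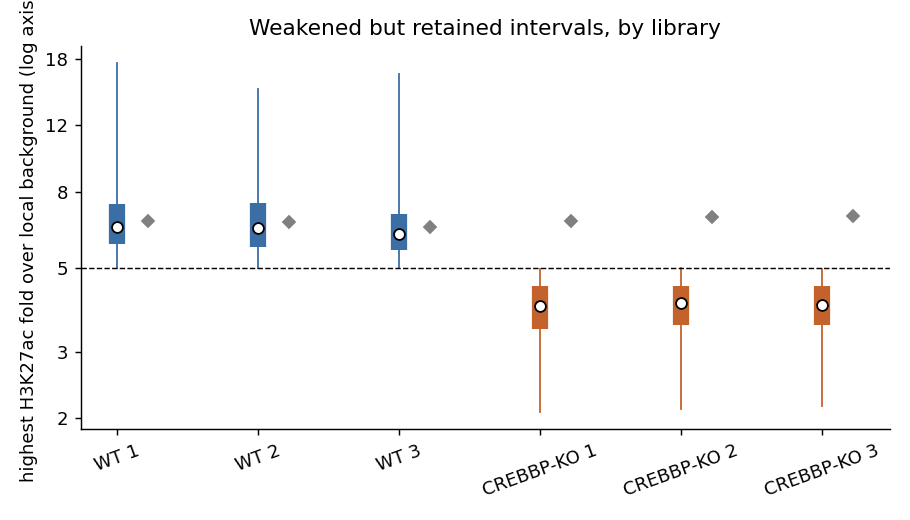
Highest H3K27ac fold over local background in each library (log axis) for the 951 weakened intervals: circles are medians, thick bars run between the quartiles, thin lines the full range, grey diamonds the median over all 52187 intervals with a peak in all 6 libraries. The dashed line is the fold of 5 that chose the members; members have medians of 6.17 to 6.42 in the WT libraries and of 3.97 to 4.04 in the knockout libraries.

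Most members lay close to the fold that chose them: 679 of them (71.4%) had a fold within 0.5 of 5 in at least 1 library. Just inside the limit, an interval nearest to ESR1 had a lowest WT fold of 5.002 and one nearest to PAPPA2 a highest CREBBP-KO fold of 4.998. Just outside, an interval nearest to MIA2 had a lowest WT fold of 4.998 and one nearest to CACYBP a highest CREBBP-KO fold of 5.001. Members with at least 6 in every WT library and under 4 in every CREBBP-KO library numbered 53.

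Each library was also held out in turn, with intervals chosen by the same rule on the other 5 and read in the sixth. Of intervals so chosen, 75.1%, 76.4% and 63.4% had a fold of at least 5 in the held-out WT library (1267, 1245 and 1500 intervals). In held-out CREBBP-KO libraries the shares were 23.1%, 29.4% and 26.7% (1310, 1424 and 1339 intervals). Held-out WT libraries averaged 71.6% ± 7.15 (SD, n = 3), and held-out CREBBP-KO libraries 26.4% ± 3.13 (SD, n = 3). The ranges did not overlap (exact permutation test, two-sided, p = 0.1, which is the lowest value that 3 against 3 can reach). The median log2 fold of the chosen intervals, relative to the library's own median, averaged -0.18 ± 0.035 (SD, n = 3) when WT was held out. It averaged -0.64 ± 0.013 (SD, n = 3) when CREBBP-KO was held out (p = 0.1 by the same exact permutation test). The genotypes differed by 0.46 in this log2 value. Interval limits were set with all 6 lists, the held-out one included. In each WT round, the intervals with a fold of at least 5 were the 951 members. In each CREBBP-KO round, the intervals with a peak below 5 were the same 951 members. The shares of both genotypes thus reuse folds that chose the members. The permutation exchanged finished values without repeating the choice. WT and CREBBP-KO rounds also used unlike numbers of libraries per genotype, so p = 0.1 from this permutation test does not test the genotypes.

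**Figure D2:**
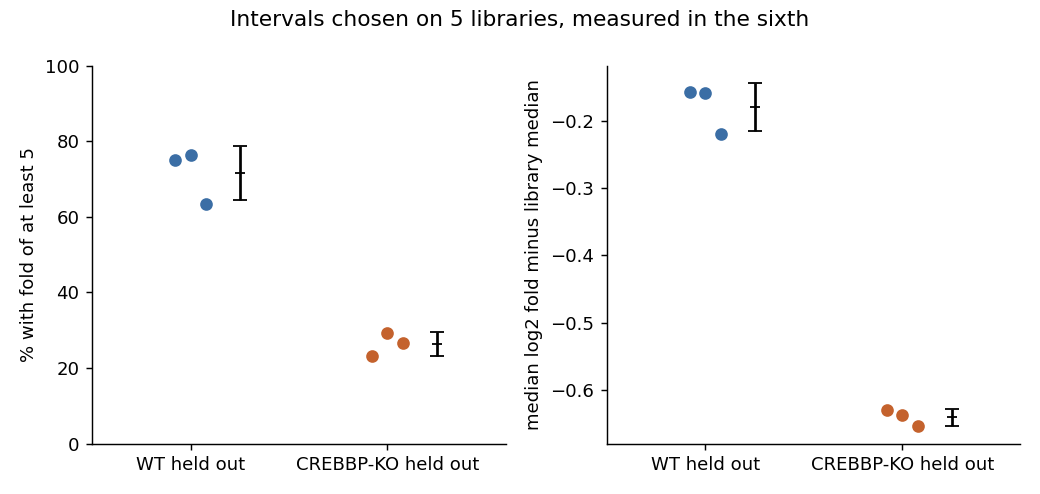
Values in the held-out library for intervals chosen on the other 5: the percentage with a fold of at least 5 (left) and the median log2 fold minus the library's median (right). Each point is 1 library, with the mean and SD beside it. The WT points lie between 63.4% and 76.4%, above all CREBBP-KO points, which lie between 23.1% and 29.4%. The shares of both genotypes reuse folds that chose the members.

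The members with the lowest ratios lay in introns or between genes. In an intron of ERC2 (ENSG00000187672.15, a presynaptic scaffold gene), the interval chr3:55884583-55886170 had folds of 10.0, 12.3 and 8.23 in WT and 3.91, 2.54 and 2.27 in CREBBP-KO. Its log2 ratio was -1.83, and the nearest coding start was that of WNT5A, a Wnt ligand gene, 395514 bases away. In LRRK2 (ENSG00000188906.17, a kinase gene), the interval chr12:40262351-40264941 had the highest mean WT fold of all members, with 17.5, 15.02 and 16.4 in WT and 4.81, 4.77 and 4.18 in CREBBP-KO. The TP63 interval (ENSG00000073282.14, encoding the p63 factor of basal epithelium), chr3:189685020-189686869, had folds of 11.5, 11.7 and 7.72 against 2.96, 3.09 and 2.57. TP63 had a peak at a coding start in WT libraries 2 and 3 alone, with folds of 2.49 and 3.54. In CCSER1, a single interval had folds of 19.5, 24.4 and 22.4 in WT and 5.14, 6.90 and 4.81 in CREBBP-KO, so it fell outside the rule.

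The other named low ratios include 3 outside genes. The interval nearest to TCF21 (chr6:133634684-133638421, 251835 bases from its start) had folds of 13.2, 9.37 and 11.1 in WT and 4.14, 2.93 and 3.01 in CREBBP-KO. The one nearest to MYO16, a myosin gene, had 9.06, 10.5 and 11.03 against 2.71, 3.91 and 3.38. The one 5297 bases from a start of DMRT3, a transcription factor gene, had 10.3, 11.6 and 8.93 against 3.26, 3.58 and 3.51. The MAP3K5 interval, with the AP-1 match shown above, had 12.03, 10.2 and 10.5 against 4.15, 3.44 and 3.75, and the LRP1B interval 9.39, 10.8 and 9.35 against 4.00, 3.62 and 3.26.

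**Figure D3:**
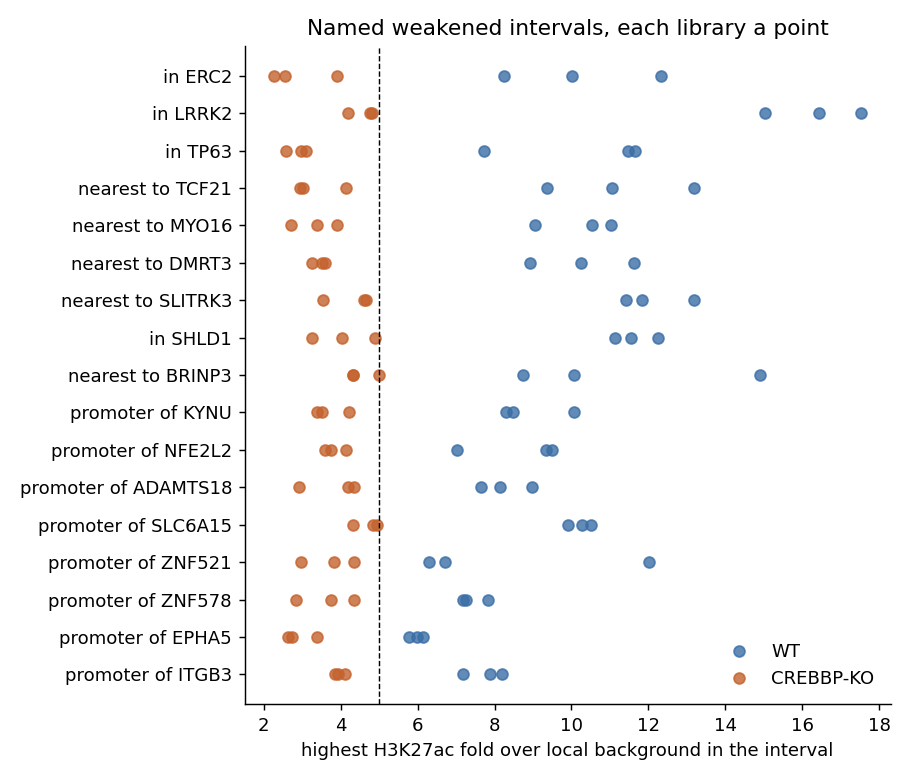
Highest fold over local background in each library (each point 1 library) for the members with the lowest ratio, the highest WT fold, or a summit within 1 kb of a protein-coding start. The dashed line is the fold of 5; the LRRK2 interval reaches from 15.02 to 17.5 in WT and is highest at 4.81 in the knockout.

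Promoters were rare among the members. A summit within 1 kb of a protein-coding transcript start was found for 17 members (1.79%), against 33.1% of the other intervals that passed in WT and 13.4% of the 1450 intervals that met the opposite rule (below 5 in all WT and at least 5 in all CREBBP-KO, called strengthened here). Another 53 members (5.57%) lay at the start of a non-coding transcript. Members were intergenic in 414 cases (43.5%), in a later intron in 336 (35.3%), in a first intron in 100 (10.5%) and in an exon in 31 (3.26%). Seen the other way, 0.177% of coding promoters that passed in WT were members, against 5.37% of intergenic and 4.60% of later-intron intervals.

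The share of members fell with the height of the WT peak, and the rule itself favours this. A WT peak near 5 met the rule after a small drop, while a tall one had to fall much further to get below 5. The shares by height therefore do not show that low WT peaks lose more. Members were 17.1% of the WT-passing intervals with a mean WT fold of 5 to 6, 9.21% at 6 to 7, 4.49% at 7 to 8, 1.43% at 8 to 10 and 0.214% at 10 to 15. Above 15 the LRRK2 interval was the single member among 5387. Promoter peaks are tall, and with the mean WT fold held under 8, coding promoters were 1.42% of 844 members and 18.02% of 8789 other intervals.

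**Figure D4:**
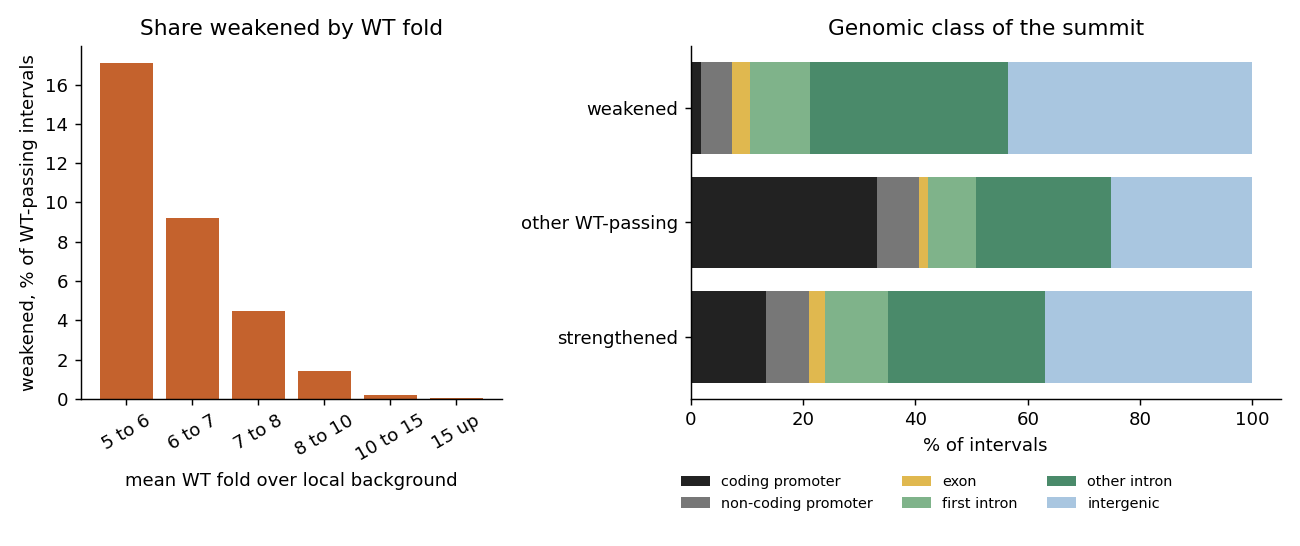
Left, weakened intervals as a percentage of all intervals passing a fold of 5 in WT, by mean WT fold, falling from 17.1% at 5 to 6 to 0.214% at 10 to 15. The rule favours this fall, as a tall WT peak needs a larger drop to get below 5. Right, genomic class of the summit for weakened, other WT-passing and strengthened intervals; coding promoters (black) make up 1.79%, 33.1% and 13.4%.

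Among the promoter members with the lowest ratios, KYNU, a kynurenine pathway enzyme gene, had folds of 8.30, 10.1 and 8.49 in WT and 3.52, 4.23 and 3.37 in CREBBP-KO. An interval at a start of NFE2L2, which encodes the oxidative stress factor NRF2, had 9.48, 9.33 and 7.02 against 4.14, 3.75 and 3.58. ADAMTS18, SLC6A15, ZNF521 and ZNF578 had log2 ratios of -1.13, -1.12, -1.12 and -1.05. The NFE2L2, ADAMTS18, SLC6A15 and ZNF521 summits lay within 1 kb of a start inside the gene, and not of its outermost start. EPHA5, an ephrin receptor gene, had 5.98, 6.14 and 5.77 against 3.38, 2.73 and 2.62, and ITGB3, an integrin gene, 7.18, 7.88 and 8.20 against 4.12, 3.93 and 3.86. In ZNF521 the WT folds were uneven, at 6.29, 6.71 and 12.02.

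Members were narrow and far from coding starts. The median width of the merged interval was 2127 bp, with quartiles at 1643 and 2769 bp, against 3425 bp for other WT-passing intervals and 2086 bp for strengthened ones. With promoter summits left out and the mean WT fold under 8, the gap was smaller, at 2079.5 bp for members and 2674 bp for other WT-passing intervals. Within members, the sequence covered by peaks had a median of 1686, 1746 and 1622 bp in WT and 966, 1095 and 1199 bp in CREBBP-KO, while over all 52187 intervals it was 1886, 1949 and 1840 bp against 1799, 1906 and 2025 bp. The library had a single peak in the member in 88.9%, 91.3% and 88.7% of cases in WT and in 77.4%, 82.2% and 87.0% in CREBBP-KO. The highest WT and CREBBP-KO summits of a member were a median of 127 bp apart. The widest member, 10696 bp in WNT5B, a Wnt ligand gene, had one of the smaller drops, with a log2 ratio of -0.38. Widths of 10512 bp in INO80 and 9098 bp in XRCC5 followed, with ratios of -1.09 and -0.97.

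The median distance from a member's summit to the nearest coding start was 47185 bases, against 13210 bases for other WT-passing and 24948 bases for strengthened intervals. Over 200 kb away lay 182 members (19.1%), against 7.91% and 7.66%. Leaving out all promoter summits, the medians were 50228 bases for 881 members, 35807 bases for other WT-passing and 35102 bases for strengthened intervals.

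Members were also AT-rich. The median GC content of the 300-base window was 41.0%, against 49.0% in both other WT-passing and strengthened intervals; away from promoters it was 40.7%, 43.3% and 47.7%. Away from promoters, members were 6.71% of WT-passing intervals with under 36% GC, 5.88% at 36 to 40%, 5.28% at 40 to 44%, 4.92% at 44 to 48% and 2.96% above. The ratio of all such intervals with a peak in all 6 libraries moved the same way, from a median log2 ratio of -0.11 in the lowest GC class to 0.15 in the highest. An alternative chosen after seeing the data removed each library's trend of fold with GC, taken over intervals of every class, promoters included. It chose 1056 intervals, 789 of them among the 951 (83.0%), with a median GC of 45.0%. Of the 1056, 11.7% lay at any transcript start, in place of 7.36%. Differences between promoters and other intervals that run with GC were removed too, so the part of GC alone was not tested.

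In windows away from promoters, an AP-1 match was found in 14.9% of members, 11.6% of other WT-passing, 14.1% of strengthened and 13.1% of all such intervals with a peak in every library. Forkhead matches were found in 7.95%, 5.36%, 4.10% and 5.59%, and CDX matches in 19.9%, 16.7%, 13.1% and 16.9%. TEAD (16.6%, 16.4%, 18.8% and 16.7%) and RUNX (21.8%, 20.4%, 20.6% and 20.8%) differed less. The GC-rich SP/KLF letters (GGGCGG) were in 3.86% of members, 5.93%, 8.82% and 5.42%. Within windows of 38 to 44% GC, AP-1 letters were in 16.6% of 271 members and 12.5% of 4822 other WT-passing windows, forkhead letters in 9.23% and 6.08%, and GATA letters in 21.0% and 22.7%. The SP/KLF letters turned in direction there, at 2.21% of members and 1.24% of the others. Glucocorticoid receptor letters (ACANNNTGT) were there in 6.64% of members and 10.6% of the others. ZEB/SNAI letters (CAGGTG) were in 14.8% and 11.6%. Further motifs were counted and are not listed. These are counts of letters in a window and were not tested.

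Most members lay singly. Of all members, 810 had no other within 100 kb, 66 pairs were linked by gaps under 100 kb, and 3 chains held 3. A further member lay within 50 kb of 7.78% of them and within 200 kb of 24.3%. Among the more numerous strengthened intervals these shares were 16.2% and 37.2%. Whether the spacing differs from that of randomly placed sites was not tested. By chromosome, leaving out Y, members were between 1.11% (chromosome 19) and 5.73% (chromosome 4) of WT-passing intervals. Away from promoters, the shares ran from 2.38% (chromosome 17) to 7.51% (chromosome 4), with 3.57% on chromosome 19.

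The 951 members were nearest to 816 protein-coding genes, 711 of them with a single member and 10 with 4, which was the most. NCKAP5 had 4 members among 16 WT-passing intervals nearest to it, with log2 ratios from -1.34 to -0.92, and the remaining intervals nearest to it had a median of -0.30. SEMA3A, a repulsive axon guidance ligand, had 4 of 20, from -0.85 to -0.57, with a median of -0.34 for the rest. PRKG1, a cGMP-dependent kinase gene, had 4 of 15, from -1.42 to -0.68. The 8 of these 10 genes with the lowest median ratio are named, and the rest of the 8 were CCDC179 (4 of 7), RGS17, a regulator of G protein signalling (4 of 8), EPHA5 (4 of 8), DDHD1 (4 of 7) and PABPC4L (4 of 17). At DDHD1 the remaining intervals had a median of 0.10.

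Gene lists were read through the nearest coding start, against the 3.17% of WT-passing intervals that were members. That share is lowered by coding promoters (0.177% members), while it was 5.37% for intergenic and 4.60% for later-intron intervals. The lists were not matched for genomic class, so a share above 3.17% was not tested as a trait of a list. Axon guidance ligands and receptors held 14 members among 181 WT-passing intervals (7.73%), nearest to 7 genes. SEMA6D had 10.4, 10.7 and 8.08 in WT and 3.63, 2.87 and 3.72 in CREBBP-KO, and ROBO1, a guidance receptor gene, and SEMA5A had log2 ratios of -1.13 and -1.09. Basal epithelial genes held 3 of 38 (7.89%), nearest to TP63 and KLF5. Integrins and laminins held 4 of 65 (6.15%), nearest to ITGA2, ITGB3, ITGB8 and LAMB3. ITGA2, a collagen receptor subunit gene, had 8.10, 5.5997 and 6.68 against 4.06, 2.27 and 3.26. Mesenchymal state genes held 8 of 147 (5.44%); an interval near ZEB1, a repressor of epithelial genes, had 9.04, 8.00 and 8.49 against 3.55, 3.76 and 3.59.

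The following lists had shares of 4.35% or less. Forkhead and SOX factors held 4 of 92 (4.35%). Histone acetyltransferases, deacetylases and BET readers held 2 of 50 (4.00%, nearest to HDAC2 and KAT6B). The first of these lay in an intron of HS3ST5, 89114 bases from the HDAC2 start. Notch pathway genes held 2 of 55 (3.64%) and intestinal identity factors 1 of 32 (3.13%). That 1 was intergenic, with HNF4G the nearest gene, 339005 bases away. Nuclear receptors held 4 of 131 (3.05%), TGF-beta and BMP pathway genes 4 of 133 (3.01%) and collagens and matrix genes 4 of 136 (2.94%). Wnt pathway genes held 2 of 89 (2.25%), EGF receptor and MAPK feedback genes 3 of 135 (2.22%), YAP-TEAD pathway genes 2 of 115 (1.74%), NF-kB, chemokine and cytokine genes 1 of 59 (1.69%) and p53, cell cycle and immortalization genes 1 of 76 (1.32%). AP-1 and CREB/ATF factors held 0 of 85 and interferon response genes 0 of 32.

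Intervals around the members were read in the same libraries that chose the members, so they are given without a test. Non-members away from promoters had a median log2 ratio of -0.14 within 10 kb of a member (445 intervals), -0.07 from 10 to 50 kb, -0.02 from 50 to 200 kb, 0.03 from 200 kb to 1 Mb and 0.06 beyond. Coding promoters had medians of 0.14 within 10 kb (66 intervals), 0.20, 0.28, 0.29 and 0.29 over the same distances. Of the 761 genes nearest to a member away from promoters, 511 had a promoter interval with a peak in every library that was no member, and the median log2 ratio of these 636 intervals was 0.20, against 0.29 for all 11210 coding promoter intervals. For genes with 2 or more such members it was 0.14 (85 intervals).

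**Figure D5:**
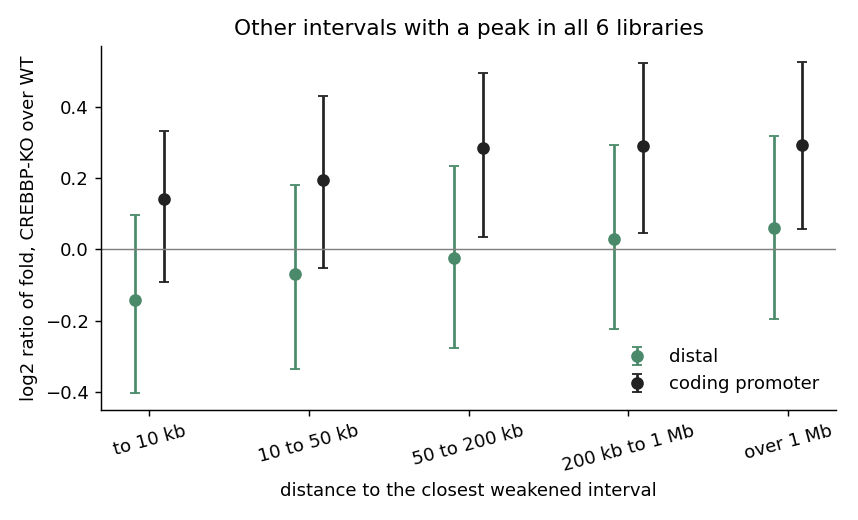
Log2 ratio of fold, CREBBP-KO over WT, of intervals that are no members, by distance to the closest weakened interval: points are medians and bars span the quartiles. Distal intervals rise from -0.14 within 10 kb to 0.06 beyond 1 Mb, and coding promoters from 0.14 to 0.29.

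The promoters of the acetyltransferase genes kept tall peaks: CREBBP (ENSG00000005339.15) had folds of 17.98, 21.0 and 16.1 in WT and 24.1, 25.9 and 28.9 in CREBBP-KO, and EP300 (ENSG00000100393.15) 24.3, 24.8 and 24.7 against 29.4, 29.0 and 29.3. A promoter peak says nothing of the edit within the gene. Of the markers of epithelium and colonic epithelium, EPCAM, KRT8 and MUC2 had a peak at a coding start in all 6 libraries, and 10 had one in none, CDH1, CDX2 and VIL1 among them. COL1A1 and PDGFRA, markers of fibroblasts, had one in all 6, and PTPRC, of leukocytes, in none.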

How the data were processed

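H3K27ac ChIP-seq peak lists of 3 WT and 3 CREBBP-KO libraries were used. The authors aligned reads to hg38 (BWA is named in the submitters' processing notes) with the nf-core ChIP-seq pipeline and called narrow peaks with MACS2, 1 list per library. The deposited fold of a peak is a linear ratio over local background, and the deposited significance is a −log10 q-value, at least 1.30 in these lists. The summit offset was also read from the deposited lists. Whether the lists precede the downsampling of reads that the methods describe is not given in the sources used here. The lists hold no read counts, so depth is unknown and no counting interval is given.

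Peaks that overlapped or touched were merged, and the highest fold per library was kept. Log2 ratios are differences of mean log2 folds. Each interval was placed by its highest WT summit in GENCODE release 44: promoters lay within 1 kb of a transcript start, and genes were assigned by the nearest protein-coding start. GC content and motif letters were read in 300 bases of hg38, whose chromosome lengths covered every peak on chromosomes 1 to 22, X and Y. Values of held-out libraries were compared between genotypes by an exact permutation test (two-sided) of the finished values, without repeating the choice of intervals.

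The intervals, gene lists and motifs were chosen with earlier results of these data known. Intervals were named by rule: the 6 lowest ratios, the 4 highest WT folds, the 3 widest, the 8 lowest at coding promoters, the 8 genes with most members, up to 3 genes per list, those next to the fold limit, and TP63, ERC2, CCSER1, CREBBP and EP300. The MAP3K5 and LRP1B intervals were added after their values were seen. Results for 1 gene list and 1 marker gene are not reported here. Merging and the rule were tested on simulated data. Alternatives were other folds, scalings, merging, significance limits and promoter distances, and each library left out in turn. Scripts ran in Python 3.11.15 with pandas 2.3.3, numpy 2.4.6 and matplotlib 3.10.9; scipy was version 1.17.1 and bedtools 2.31.1.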

Additional observations from a re-analysis of the deposited data

How the results depend on the processing

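The number of weakened intervals, 951, was 53 with a gap between the genotypes (at least 6 in WT and under 4 in CREBBP-KO), 599 with percentiles within each list in place of folds, 466 with a −log10 q minimum of 5 for peaks, and 4072 when 2 of 3 libraries per genotype sufficed; leaving out 1 library gave 1265 to 1521, the highest without WT replicate 3, followed by 1427 without CREBBP-KO replicate 2. The share at any transcript start, 7.36%, was 11.5% at a fold of 4, 9.23% at a fold of 6, 9.43% with the gap, 9.63% with 2 of 3 libraries, 11.7% with each library's GC trend removed (chosen after seeing the data), 4.52% within 500 bp, 12.9% within 2 kb and 1.79% for protein-coding starts, and 7.16% to 8.43% without 1 library. The median width, 2127 bp, was 1833 bp at a fold of 4, 2446 bp at 6, 2225 bp with the q-value limit, 862.5 bp for windows around summits, 2239 bp with the mean fold per library, 2041 bp with the GC trend removed and 1632 bp for the highest WT peak, and 1926 to 2162 bp without 1 library. Almost every alternative again set a lower limit in WT and an upper limit in CREBBP-KO, which made the log2 ratio negative in advance. The median log2 ratio, -0.71, was -0.62 at a fold of 4, -0.73 at 6, -1.16 with the gap and -0.78 with percentiles. It was -0.62 with the q-value limit, -0.73 for summit windows, -0.75 with the mean fold and -0.46 with 2 of 3 libraries. With the GC trend removed it was -0.69, relative to all intervals -0.80, and without 1 library -0.71 to -0.66. The cause of these shifts was not tested.

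The held-out difference in share was 39.4 to 51.0 percentage points over the other folds, scaling and q-value limit. The held-out log2 difference was 0.37 to 0.51. Exact permutation of the finished values gave p = 0.1 each time, with the limit given above. Without 1 library they were 42.8 to 49.3 points and 0.45 to 0.48. With a replicate block, holding same-numbered libraries out together, they were 48.5 points and 0.51 (exact sign-flip test of the finished values, p = 0.25, the smallest 3 pairs allow). Deviations of same-numbered libraries from their group means correlated at 0.0019, 0.0020 and 0.022, against -0.015 to 0.013 for other pairs. Such values cannot show whether same-numbered libraries were handled together, so pairing is unknown.

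With 3 libraries a group, an exact test cannot go below p = 0.1. The depth of the libraries is unknown, and the lists hold no scale on which total H3K27ac can be compared.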
